A study of Mus musculus with 9 samples.

Results

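Potassium channel genes were taken as the protein-coding genes of GENCODE vM21 with a symbol beginning with Kcn, and 94 of 21938 protein-coding genes met this rule. For each, the differentially methylated regions (DMRs) in the authors' deposited table that touched the gene body or the 1000 bp upstream were collected, which gave 51 of 12949 DMRs, in 33 of the 94 genes. No DMR was shared by a pair of members, and 0 of the 51 lay over another protein-coding gene. The rule uses gene names and positions and no measured value, but the gene group was proposed with earlier results of these data known.

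The DNA came from the hypothalamus of male C57/Bl6 pups killed on postnatal day 6. In modified maternal separation (MMS), pups spent 1.5 h of postnatal days 4, 5 and 6 away from their mother on a heating pad and were laid on their backs again each time they turned over, while control pups were male littermates not put through this. DNA of 10 pups per group was combined at random into 3 pools per group, so each library mixes animals and variation from pup to pup was not measured. Methylated DNA immunoprecipitation sequencing (meDIP) was run on 3 control and 3 MMS pools, beside 1 input per group and 1 IgG library, which are not analysed here by themselves. The tissue is a mixture of neurons and glia, so a change in the share of a cell type and a change within cells cannot be told apart.

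Potassium channels let potassium cross the cell membrane, and so help to set the resting potential, the shape of each spike and the spacing between spikes. The pore is built from alpha subunits that open with voltage, with calcium or sodium inside the cell, with G proteins, or with membrane stretch and lipids, and accessory subunits change how the pores open and where they are placed. In the hypothalamus such channels shape the firing of neuroendocrine and feeding neurons, and in astrocytes they clear potassium from the space around active neurons.

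Every level below is the authors' deposited log2 mean of normalised meDIP reads over the 3 libraries of a group, and every difference is MMS minus control on that log2 scale. The table holds no value per library, so no standard deviation and no test between the groups could be computed, and the reads of single libraries behind a value are not given in it, although the study's methods state a range of reads per library. All 51 regions are ones the authors called at a false discovery rate of 0.05, and regions they tested but did not call are not analysed here. The lowest value in the table was -0.17 in control and -0.24 in MMS (0.889 and 0.847 normalised reads). A difference against a group at its lowest value is set by where that value lies and is not a measured fold.

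Sequences of 5 DMRs, read from the GRCm38 (mm10) reference on the strand of the gene, show where CpG sites lie in these regions. Capitals mark CpG sites, the usual target of DNA methylation in mammals. The Kcnh8 run is the central 300 bp of the DMR with the highest MMS level among those that differed by over 4, chr17:52740590-52740889, and the Kcnj10 run is the central 300 bp of the DMR with the second largest excess in control, chr1:172343779-172344078. Kcnma1 is shown by its CpG-free DMR (chr14:23679196-23679382), Kcnd3 by its DMR higher in control (chr3:105552674-105552877), and Kcnk2 by a DMR with 7 CpG sites in 251 bp (chr1:189219034-189219284).
Kcnh8: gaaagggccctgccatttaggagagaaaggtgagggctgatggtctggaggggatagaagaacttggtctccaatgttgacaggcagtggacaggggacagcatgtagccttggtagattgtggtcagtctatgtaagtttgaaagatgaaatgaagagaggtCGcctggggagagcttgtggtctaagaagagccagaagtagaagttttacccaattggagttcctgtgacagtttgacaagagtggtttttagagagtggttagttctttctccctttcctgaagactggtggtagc
Kcnma1: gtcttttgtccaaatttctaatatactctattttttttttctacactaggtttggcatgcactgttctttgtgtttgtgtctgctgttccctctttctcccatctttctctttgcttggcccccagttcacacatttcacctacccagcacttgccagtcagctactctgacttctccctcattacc
Kcnd3: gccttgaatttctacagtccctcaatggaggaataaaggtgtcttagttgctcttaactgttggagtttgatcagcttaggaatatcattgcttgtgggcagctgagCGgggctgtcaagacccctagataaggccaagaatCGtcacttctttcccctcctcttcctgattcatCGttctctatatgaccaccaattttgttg
Kcnj10: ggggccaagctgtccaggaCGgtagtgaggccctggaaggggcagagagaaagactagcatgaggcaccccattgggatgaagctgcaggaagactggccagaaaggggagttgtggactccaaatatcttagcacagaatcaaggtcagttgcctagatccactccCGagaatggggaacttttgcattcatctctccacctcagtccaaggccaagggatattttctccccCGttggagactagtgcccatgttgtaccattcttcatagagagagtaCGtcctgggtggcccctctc
Kcnk2: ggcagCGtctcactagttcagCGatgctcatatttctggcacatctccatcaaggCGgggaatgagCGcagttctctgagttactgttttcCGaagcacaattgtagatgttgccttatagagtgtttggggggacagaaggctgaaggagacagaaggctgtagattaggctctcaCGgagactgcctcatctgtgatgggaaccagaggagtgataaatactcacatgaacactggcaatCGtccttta

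Of the 51 DMRs, the MMS mean exceeded the control mean in 38 and fell short of it in 13. That is 74.5% higher in MMS (95% Wilson interval 61.1% to 84.5%, which covers the counting of regions only), where 62.1% of the 6498 DMRs over protein-coding genes and 62.6% of all DMRs were higher in MMS. The background of 62.1% lies inside that interval. Among DMRs that differed by at least 2, 86.1% were higher in MMS, against 81.1% over protein-coding genes. With regions near the lowest value of their lower group left out, it was 63.6% of 33, against 45.9% over protein-coding genes. Seen by gene, 21 members had DMRs higher in MMS only, 8 had DMRs higher in control only and 4 had both (Kcnd3, Kcnma1, Kcnn3 and Kcnj6). In the 38 DMRs higher in MMS the median difference was 3.13, from 0.98 to 4.90, beside 3.41 over protein-coding genes. The 13 DMRs higher in control had a median difference of -1.75, from -5.05 to -1.02, beside -1.69 over protein-coding genes.

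The 2 directions started from unlike levels. In DMRs higher in control, the control mean lay in a narrow band from 4.48 to 5.84 and the MMS mean had a median of 3.02. In DMRs higher in MMS, the MMS mean ran from 3.13 to 6.11 with a median of 4.20, and control was exactly at its lowest value in 17 of 38. That is 44.7%. The share with control within 0.5 of its lowest value, which in these genes was met by the same 17 regions, was 50.3% over protein-coding genes and 52.7% over all DMRs. The opposite case, MMS at its lowest value, occurred in 1 of 13, in Kcnma1, where MMS was within 0.5 of its lowest value in 4.6% of all DMRs higher in control. Both group means were above 3 in 13 of the 51 DMRs.

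**Figure D1:**
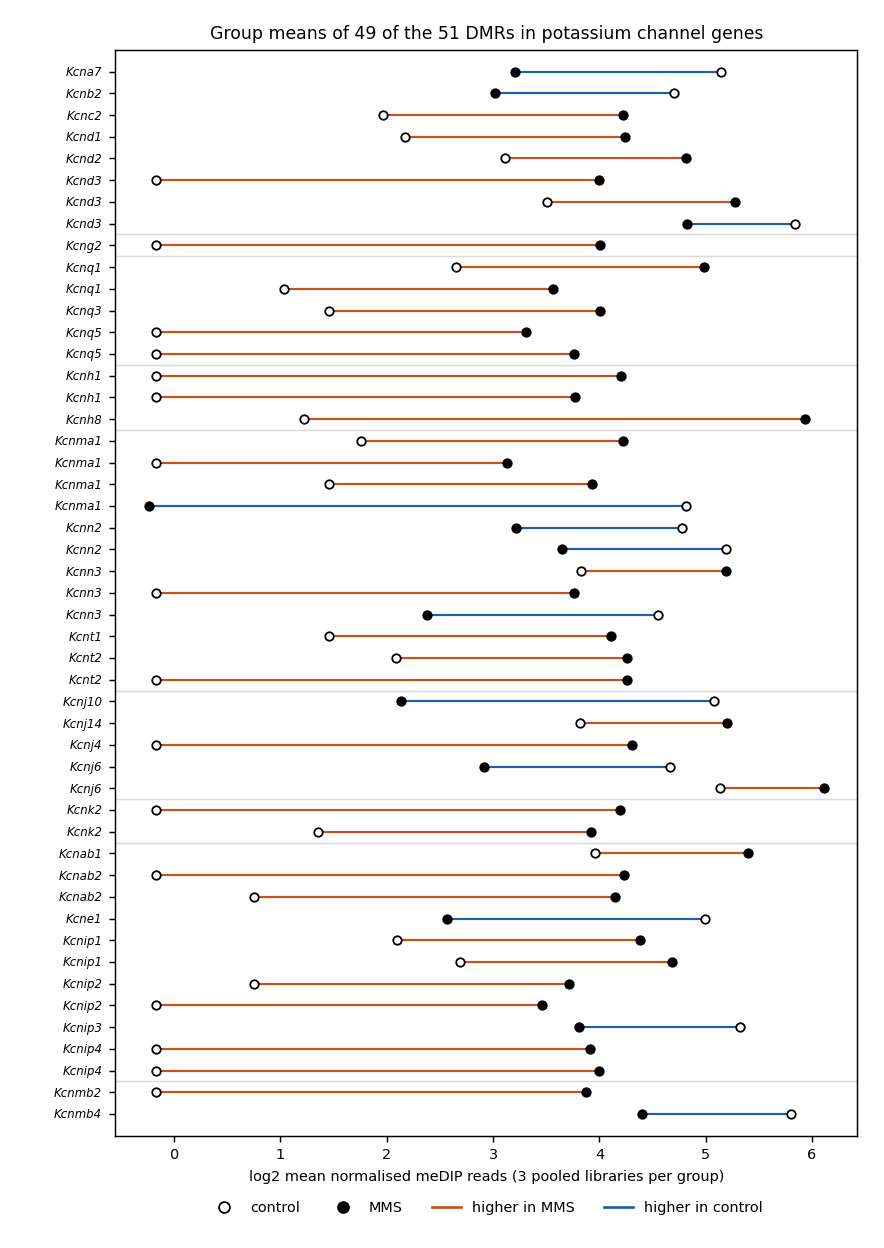
Each row is 1 of 49 of the 51 DMRs, named by its gene and ordered by role, with the log2 mean of normalised meDIP reads in control (open circle) and in MMS (filled circle) joined by a line coloured by direction; each circle is a mean over 3 libraries and no spread is available. The 16 open circles at -0.17 are controls at the lowest value, and the single filled circle at -0.24 is Kcnma1.

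Among the pore-forming subunits of voltage-gated channels (Kcna, Kcnb, Kcnc and Kcnd), 8 of 17 genes had a DMR. The share was 19.3% over all protein-coding genes and 13.2% at 10 to 30 kb, the class of their median length (16.0 kb). Their lengths ran from 1.9 kb (Kcna3) to 514 kb (Kcnd2), and 79.9% of all genes over 300 kb had one. Role groups mix short and long genes, so here and below the class of a median length is only a rough comparison. Of their 10 DMRs, 6 were higher in MMS, near the 62.1% over protein-coding genes. All 3 members of the Kcnd family, which carry the fast A-type current that delays spiking in dendrites, had a DMR. Kcnd3 held 3 of them in its second intron, at 50.4, 95.7 and 100 kb from the gene start. The first had -0.17 in control and 4.00 in MMS, the second 3.51 and 5.28, and the third 5.84 and 4.82. The last 2 lay 4.18 kb apart and went in opposite directions, and the third is the sequence shown above with 3 CpG sites in 204 bp. Kcnd2 had 1 DMR near its 3′ end, 474 kb from the start of a 514 kb gene, with 3.11 in control and 4.81 in MMS.

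Kcnd1 lies on chromosome X and its DMR was the only one of the 51 there. It had 2.17 in control and 4.24 in MMS, and 126 of its 253 bp fell within the 1000 bp upstream window, so it was counted only through the edge of that window. Just outside the window, a DMR 1042 bp upstream of Kcne1 had -0.17 in control and 4.03 in MMS, and one 3027 bp upstream of Kcnu1 had 5.67 and 4.11.

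Kcnc2, of the family that allows very fast firing, had 1.96 in control and 4.22 in MMS in its second intron. Kcnb2, a channel of the delayed rectifier current, went the other way, with 4.70 in control and 3.02 in MMS in its second intron. Of the 8 Kcna genes, which place low-threshold channels along axons, Kcna7 had a DMR, with 5.14 in control and 3.21 in MMS. That is 1 of 8, where 19.3% of all protein-coding genes and 3.58% of those under 10 kb had one. Neither of the gene clusters Kcna2, Kcna3 and Kcna10 on chromosome 3 and Kcna1, Kcna5 and Kcna6 on chromosome 6 held one.

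The silent subunits (Kcnf, Kcng, Kcns and Kcnv) form no channel alone and modify those of Kcnb. A DMR was found in 1 of 10 such genes, whose median length was 13.2 kb, where 13.2% of all genes of 10 to 30 kb had one. It lay in the first intron of Kcng2, with -0.17 in control and 4.01 in MMS. The control group was therefore at its lowest value there.

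All 5 DMRs in the Kcnq genes were higher in MMS, against 62.1% over protein-coding genes, and they lay in 3 of 5 genes. These are long genes, with a median of 300 kb, and 57.4% of all genes of 100 to 300 kb and 79.9% of longer ones had a DMR. Kcnq3 and Kcnq5 contribute to the M-current, a slow brake on repetitive firing, and Kcnq1 is best known from heart and inner ear. The first intron of Kcnq3 had 1.46 in control and 4.01 in MMS. Kcnq5 had -0.17 in control at both of its DMRs, which were 305 kb apart, with 3.76 and 3.31 in MMS.

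Kcnq1 hosts the antisense noncoding RNA Kcnq1ot1, whose promoter is an imprinting control region. The DMRs of Kcnq1 lay in its first intron (2.65 in control, 4.98 in MMS) and its second intron (1.03 and 3.56), 33.5 kb apart. They ended 55.2 and 21.6 kb before the nearer end of Kcnq1ot1 (chr7:143203458-143296549), and 0 DMRs overlapped Kcnq1ot1 itself. The first of them had 2 CpG sites in 609 bp.

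The ether-a-go-go family (Kcnh) had 3 DMRs in 2 of 8 genes, where 19.3% of all protein-coding genes had one. Their median length was 156 kb, and at 100 to 300 kb the share over all genes was 57.4%. All 3 were higher in MMS, where the background was 62.1%. Kcnh8, an ELK-type channel expressed in brain, had 1.22 in control and 5.93 in MMS, or 2.33 and 61.0 normalised reads. Its MMS level was the second highest of the 51, and its control level was above the lowest value. The difference was 4.71. Of all 8105 DMRs higher in MMS, 112 had an MMS mean at or above this one. It lay in the second intron, 138 kb from the gene start, with 5 CpG sites in 607 bp. Kcnh1 had -0.17 in control at both of its DMRs in its sixth intron, with 4.20 and 3.77 in MMS. Kcnh7, the longest member without a DMR at 491 kb, belongs to the same family, as does Kcnh5 (280 kb), which had none either.

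Channels opened by calcium or sodium inside the cell (Kcnma1, Kcnn, Kcnt and Kcnu1) had 12 DMRs in 5 of 8 genes, against 19.3% of all protein-coding genes and 57.4% of those of 100 to 300 kb, the class of their median length (122 kb). Of the 12, 8 were higher in MMS, near the background of 62.1%. Kcnma1 encodes the pore of the large-conductance BK channel, which repolarises spikes and limits release of hormone and transmitter. It held 4 DMRs over 725 kb, the most of any member, but all 4 were under 300 bp wide and 2 were left without DMRs near the lowest value of their lower group. From the gene start, control and MMS levels were 1.76 and 4.22 at 112 kb, -0.17 and 3.13 at 154 kb and 1.46 and 3.93 at 242 kb. The fourth, at 335 kb, had 4.81 in control and -0.24 in MMS.

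That last DMR had the largest difference of any in these genes, -5.05, with MMS at its lowest value. Of all 4844 DMRs higher in control, 64 differed by at least as much, and in 185 of them (3.82%) MMS was exactly at its lowest value. The region is 187 bp wide and has 0 CpG sites, with 2 within 300 bp on each side. The DMR nearest the gene start, 159 bp wide, had 5 CpG sites and the highest density of the 51, at 3.14 per 100 bp, and 62.3% of it was repeat sequence.

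The small-conductance channels Kcnn2 and Kcnn3 produce the slow pause after a burst of spikes. Kcnn2, on chromosome 18, was the only member with several DMRs that were all higher in control, with 4.78 in control and 3.22 in MMS in its first intron and 5.19 and 3.65 in its seventh, 342 kb apart. Kcnn3 had 3.83 in control and 5.19 in MMS, then -0.17 and 3.76 only 1.59 kb further on, and then 4.55 and 2.38 in the next intron. Neighbouring DMRs of the first intron thus had the same direction and the third had the opposite one. Kcnn1 and Kcnn4 had none.

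The sodium-activated channels Kcnt1 and Kcnt2 had DMRs higher in MMS only. Kcnt1 had 1.46 in control and 4.11 in MMS over a region of 274 bp without a CpG site, with 4 within 300 bp on each side. Kcnt2 had 2.09 and 4.26 at 18.1 kb from its start and -0.17 and 4.26 at 53.8 kb. These regions were 52.6% and 79.1% repeat sequence, the latter the highest of the 51.

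Inward rectifiers (Kcnj) had 5 DMRs in 4 of 15 genes, 3 of them higher in MMS. The shares over protein-coding genes were 19.3% with a DMR, or 13.2% at 10 to 30 kb, the class of their median length (26.7 kb), and 62.1% of DMRs higher in MMS. Kcnj10, the main potassium channel of astrocytes and oligodendrocytes, had 5.08 in control and 2.13 in MMS (33.8 and 4.38 normalised reads), the second largest excess in control after Kcnma1. The DMR lay in the single intron, 2.72 kb from the gene start. Kcnj6, a G-protein-gated channel through which many transmitters silence neurons, had DMRs of both directions 62.5 kb apart. The one at 163 kb had 4.66 in control and 2.91 in MMS, and the one at 226 kb had 5.13 and 6.11. The latter, 1782 bp, was the widest of the 51, had the highest MMS level (69.1 normalised reads) and the smallest difference among those higher in MMS, 0.98.

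Kcnj14, a strong inward rectifier, had a DMR across its start. It took in 390 bp upstream and 166 bp of noncoding exon, and its levels were 3.82 in control and 5.20 in MMS. Kcnj4 had -0.17 in control and 4.31 in MMS in its single intron. The other partners of G-protein gating, Kcnj3, Kcnj5 and Kcnj9, and the ATP-sensitive pores Kcnj8 and Kcnj11 had none.

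The tandem-pore channels (Kcnk), which carry the background leak current, had a DMR in 1 of 14 genes, where 19.3% of all protein-coding genes and 29.8% of those of 30 to 100 kb had one. That gene was Kcnk2, whose channel opens with stretch and lipids. It had -0.17 in control and 4.19 in MMS in intron 3, and 1.35 and 3.92 in its last intron, 50.8 kb further on. Both were higher in MMS, and the second is the 251 bp shown above with 7 CpG sites. Of the 9 role groups, this one and the silent subunits had the smallest shares of genes with a DMR.

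Accessory subunits of voltage-gated channels (Kcnab, Kcne, Kcnip and Kcnrg) had 11 DMRs in 7 of 13 genes, 9 higher in MMS. Over protein-coding genes 19.3% had a DMR, or 13.2% at 10 to 30 kb, the class of their median length. Of DMRs over protein-coding genes, 62.1% were higher in MMS. That class does not match most of the group. The genes with a DMR ran from 13.5 kb (Kcne1) to 1140 kb (Kcnip4), and those without from 1.54 kb (Kcne1l) to 8.37 kb (Kcne3). Over all genes the share was 3.58% under 10 kb and 79.9% over 300 kb. All 4 Kcnip genes, which encode calcium-binding partners of the Kcnd channels, had at least 1. Kcnip1 had 2.10 in control and 4.38 in MMS, and 2.69 and 4.68 a further 8.39 kb on, both over 1 kb wide. Kcnip4, at 1140 kb the longest member, had -0.17 in control at both DMRs, with 3.91 and 4.00 in MMS, 859 kb apart. Kcnip2 had 0.75 and 3.71 at 4.97 kb from its start and -0.17 and 3.46 at 11.7 kb.

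Kcnip3, which is also described as a calcium-dependent transcriptional repressor, was the exception in this family, with 5.32 in control and 3.81 in MMS. Its DMR, chr2:127458483-127459360, was the only one of the 51 to touch coding sequence, over 31 bp of an exon near the 3′ end. Of the beta subunits, Kcnab2 had -0.17 in control and 4.23 in MMS at 54.1 kb and 0.75 and 4.15 at 79.6 kb, and Kcnab1 had 3.96 and 5.40. Kcne1, a single-span partner of Kcnq1, had 4.99 in control and 2.57 in MMS in its intron. That is opposite to the DMR just beyond its upstream window.

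The beta subunits of the BK channel (Kcnmb) had 2 DMRs in 2 of 4 genes, against 19.3% of protein-coding genes and 29.8% of those of 30 to 100 kb, the class of their median length (38.3 kb). Kcnmb2 had -0.17 in control and 3.87 in MMS, and Kcnmb4, the form most associated with neurons, had 5.80 and 4.40. Together with the pore gene Kcnma1, the BK channel genes thus had 6 DMRs, of which 4 were higher in MMS, near the background of 62.1%.

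**Figure D2:**
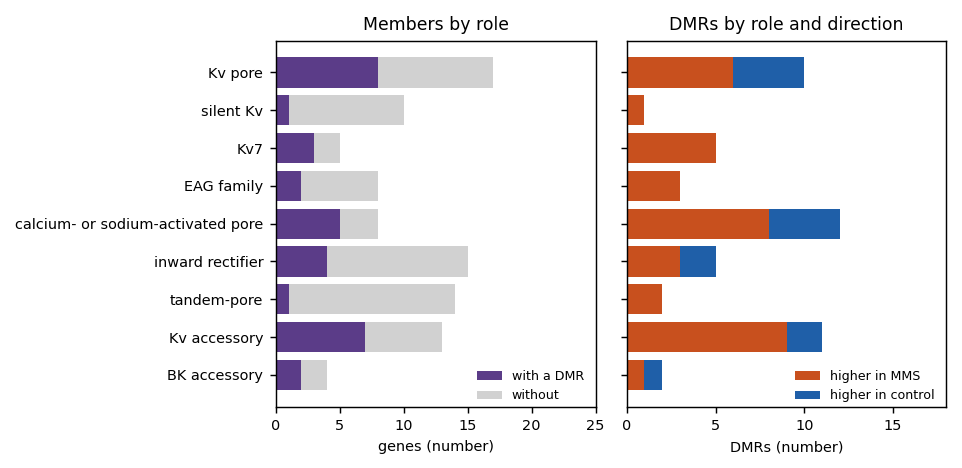
Left, number of genes in each role group with a DMR (purple) and without one (grey). Right, number of DMRs in each role group that were higher in MMS (orange) or in control (blue), where the calcium- or sodium-activated pores have 12, the Kv accessory subunits 11, and the Kv7 and EAG groups have 5 and 3, all higher in MMS.

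Most DMRs lay deep inside genes. Of the 51, 47 were wholly intronic, 3 touched an exon, Kcnj14 and Kcnip3 among them, and 3 touched the 1000 bp upstream, Kcnj14 and Kcnd1 among them. Either was touched by 4 (7.84%). Over protein-coding genes 22.8% of DMRs touched an exon or this window. The median distance to the nearest start of a protein-coding transcript of the same gene was 43.8 kb, and 40 of the 51 (78.4%) were over 10 kb from one. These distances were not computed over all protein-coding genes, and the Kcn genes with a DMR are long, with a median of 196 kb. By position along the gene, 26 centres lay between 10% and 50% of its length, and 22 of these were higher in MMS, against 62.9% of the DMRs in that stretch of all protein-coding genes. Beyond 50% of the length lay 18 centres, of which 11 were higher in MMS, against 60.5%. The stretches were set after the positions were known, and neither difference from the background was tested.

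**Figure D3:**
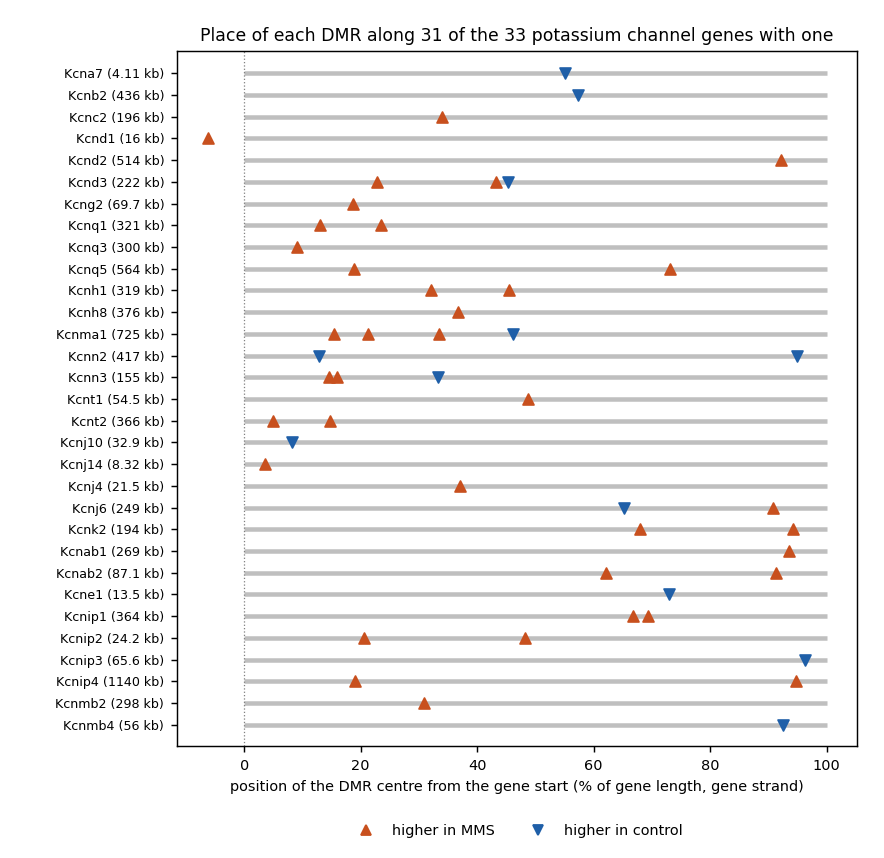
Position of the centre of each DMR along its gene, in percent of gene length from the gene start on the strand of the gene, with gene lengths in brackets; upward triangles are higher in MMS and downward triangles higher in control. It shows 31 of the 33 genes. The centre of the Kcnd1 DMR lies before the start, and Kcnma1 shows 3 upward triangles before its 1 downward triangle.

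Of the 33 genes with a DMR, 14 (42.4%) had at least 2, where 31.4% of all protein-coding genes with a DMR did. All DMRs of a gene had the same direction in 10 of the 14 (71.4%), against 42.7% of 1330 protein-coding genes, a comparison that also depends on how many DMRs a gene has. At exactly 2 DMRs, the direction was shared in 10 of 11 Kcn genes (90.9%) and in 55.9% of 802 protein-coding genes. In 9 of the 11 both were higher in MMS, where this was so in 40.0% of the 802. The exception was Kcnj6, and the gene with both higher in control was Kcnn2. Members are few and were chosen with earlier results known, so these shares were not tested.

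Gene length went with the presence of a DMR. The 33 genes with one had a median length of 196 kb and the 61 without one a median of 18 kb. A DMR was present in 35.1% of Kcn genes and in 19.3% of all protein-coding genes, whose median lengths were 30.8 and 17.4 kb. Per megabase of gene the order turned, with 4.90 DMRs in Kcn genes and 6.05 in all protein-coding genes. Within classes of length, 12 of 13 Kcn genes over 300 kb had a DMR (92.3%, against 79.9% of all genes of that length), and Kcnh7 was the one without. From 100 to 300 kb it was 7 of 10 (70%, against 57.4%), with Kcnk10, Kcnj3 and Kcnh5 lacking one.

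From 30 to 100 kb the count was 7 of 24 (29.2%, against 29.8%), and from 10 to 30 kb it was 5 of 24 (20.8%, against 13.2%). Under 10 kb, 2 of 23 Kcn genes had a DMR, Kcna7 and Kcnj14 (8.70%, against 3.58%). Median length did not put the role groups in order. The tandem-pore genes, with a median of 36.3 kb, had a DMR in 1 of 14, and the accessory subunits of voltage-gated channels, with a median of 13.5 kb, in 7 of 13. Within these groups length did go with a DMR. Kcnk2, at 194 kb, was the longest tandem-pore gene. All accessory genes with a DMR were at least 13.5 kb long (Kcne1), and all without one were at most 8.37 kb (Kcne3).

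**Figure D4:**
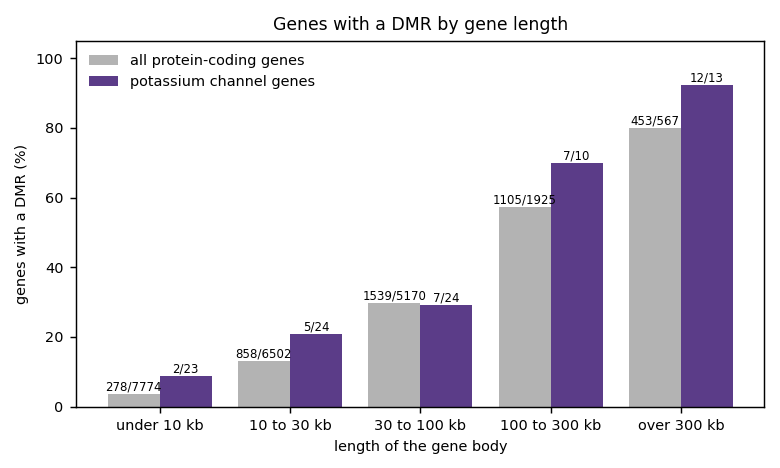
Percent of genes with a DMR over the gene body or the 1000 bp upstream in 5 classes of gene length, for all protein-coding genes (grey) and Kcn genes (purple), with the counts above each bar. The share climbs with length in both, from 3.58% to 79.9% in all genes and from 8.70% to 92.3% in Kcn genes.

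The 51 DMRs held a median of 1.29 CpG per 100 bp, beside 1.43 for DMRs over protein-coding genes and 1.32 over all DMRs. None met a common definition of a CpG island (at least 200 bp, GC content over 50% and an observed to expected CpG ratio over 0.6), a state found in 0.425% of all DMRs. By direction, median density was 1.17 where MMS was higher and 1.47 where control was higher, and the values overlapped widely. The number of CpG sites in a region ran from 0 to 35 with a median of 6. GC content had a median of 49.1%, beside 48.2% over protein-coding genes.

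Repeat sequence took up a median of 12.7% of the regions where MMS was higher. Where control was higher the median was 34.5%, and the corresponding medians over protein-coding genes were 16.2% and 16.8%. At least 50% of the region was repeat in 7 of the 51. In 46 of the 51 no alignment of at least 100 bp and 95% identity existed elsewhere in the genome. The other 5 were in Kcnip2, Kcnip3, Kcnj4, Kcnt2 and Kcnq3, and in Kcnq3 alone did the longest one reach over 50% of the DMR, at 121 of 204 bp. The part of such copies in the values of these 5 regions was not tested.

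**Figure D5:**
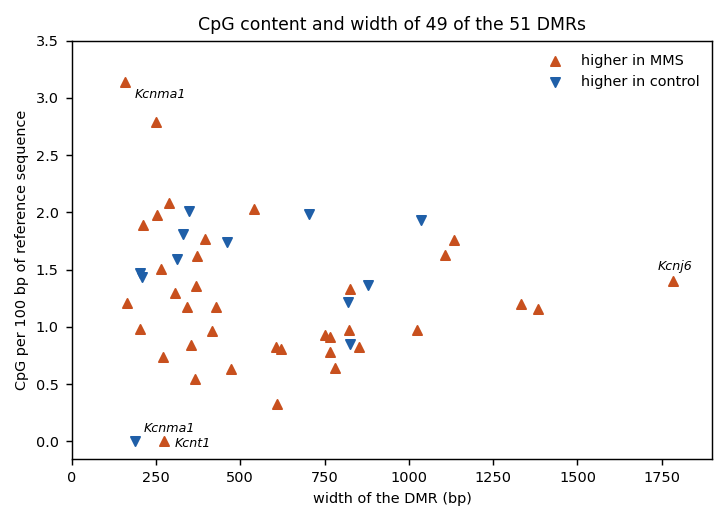
CpG sites per 100 bp of reference sequence against the width of 49 of the 51 DMRs in bp, with upward triangles for those higher in MMS and downward triangles for those higher in control. Regions higher in control reach 2.01 and those higher in MMS reach 3.14, and the regions in Kcnma1 and Kcnt1 at 0 hold no CpG site.

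Motifs of 4 transcription factors linked to neuronal activity, circadian rhythm and stress hormones were looked for on both strands in a window of 300 bp around the centre of each DMR, which runs into flanking sequence for the 13 DMRs under 300 bp, so a match there can lie outside the DMR. TGANTCA, a loose form of the AP-1 motif that allows any base at N, was present in 7 of the 51 windows (13.7%, against 7.72% of windows in all DMRs). These were in Kcnh1, Kcnip1, Kcnb2, Kcnd3, Kcnma1, Kcnn2 and Kcnt2. In the Kcnd3 sequence shown above it reads TGATTCA, and matches were not separated by the base at N, so the count is not one of strict AP-1 sites. AGAACA, a single arm of the glucocorticoid receptor site, was in 14 (27.5%, against 24.6%). The E-box CACGTG was in 3 (5.88%, against 5.58%), and the full cAMP response element TGACGTCA in 0, where 0.286% of all windows held it. These matches are letters in a window and do not show that a factor binds.

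Genes that act with these channels but carry other names were read in the same way. Of 12 channel partners 7 had a DMR, and 6 of their 10 DMRs were higher in MMS, where 19.3% of protein-coding genes had a DMR and 62.1% of the DMRs over them were higher in MMS. These partners had a median length of 61.6 kb, and 29.8% of all genes of 30 to 100 kb had a DMR. Per megabase of gene they held 2.22 DMRs, fewer than the 6.05 over protein-coding genes. Abcc8, the sulfonylurea receptor of ATP-sensitive channels, had 2 DMRs higher in MMS (0.20 in control and 4.73 in MMS, and 0.96 and 4.51), while its pore partner Kcnj11 had none. Dpp10, a partner of the Kcnd channels, had -0.17 and 3.98, and Dpp6 had DMRs of both directions. Against the same background, 5 of 13 pumps and cotransporters that move potassium had a DMR, with 1 higher in MMS and 5 higher in control, and Slc12a4 had the largest difference of the latter, -3.36. These 13 genes had a median length of 31.8 kb and 10.6 DMRs per megabase.

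The Hcn genes encode the mixed cation channels that oppose potassium currents near rest. Hcn3 had 4.41 in control and 2.29 in MMS. Among calcium, sodium and acid-sensing channel genes, 20 of 45 (44.4%, against 19.3% of protein-coding genes) had a DMR, with 8.34 DMRs per megabase of gene. Of their 61 DMRs 62.3% were higher in MMS, close to the background of 62.1%. The median length of these 45 genes was 95.6 kb, and 29.8% of all genes of 30 to 100 kb and 57.4% of those of 100 to 300 kb had a DMR. The intervals for the share higher in MMS, 49.7% to 73.4% there and 61.1% to 84.5% in Kcn genes, overlapped, and the difference was not tested.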

How the data were processed

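meDIP sequencing was done on pooled hypothalamic DNA, 3 control and 3 MMS libraries. Reads were aligned to mm10 with Torrent Suite, broad peaks were called with MACS2 over the inputs and groups were compared by the authors in DiffBind with DESeq2 and edgeR, after normalisation to a pooled input and subtraction of IgG, per the methods and the submitters' processing notes (MACS2 2.1, HOMER 4.8). The table is labelled as the DESeq2 output, and the study's text names DESeq2 for the comparison, but its number of rows equals the total that a supplement gives for edgeR, and this conflict was not resolved. The methods state a human genome size for MACS2, which enters the background of each peak. The values used are the deposited log2 means of normalised reads per group. Columns named untreated and treated were read as control and MMS. The authors' own fold changes, p-values and mean over all libraries were not used.

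Directions and differences were computed from the group means. Means at most 0.5 (log2) above the lowest of their group were called near it. Gene spans, exons and transcript starts came from GENCODE vM21 (chromosome M left out), and sequence from the GRCm38.p6 reference, within whose chromosome lengths all 12949 DMRs lay. Introns were numbered in the transcript with the longest coding sequence. Soft-masked bases were counted as repeat. The overlap count was tested on simulated regions. No replicate, and so no test, could be used, and intervals cover counting error only. Python 3.11.15, pandas 2.3.3, scipy 1.17.1, pysam 0.24.0 and BLAST 2.17.0 were used.

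Members and gene lists were chosen with earlier results of these data known. Values are given for members with 3 or more DMRs or with both directions, the 5 largest differences in each direction, every DMR over an exon or the upstream window, the largest difference and the highest lower-group mean in each role group, and Kcnh8. DMRs that no part of this rule takes, and genes outside the members, were named after their values were seen. A few genes and sequences are not reported here, and the plots of single DMRs leave them out. Motifs were also chosen after the table had been examined. Alternatives changed the overlap rule, upstream window, minimum difference, width, gene list and annotation.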

Additional observations from a re-analysis of the deposited data

How the results depend on the processing

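Over 9 alternatives, 67 of 72 recomputed values stayed within 1.5 times the reported count or the 95% interval of the reported share or median. The group means were the same in every alternative, so the direction of a DMR could not change. No Kcn DMR lay over another protein-coding gene, so the alternative that left such DMRs out could not change any value. Its values are among the 67. Without DMRs whose lower group was near its lowest value, 33 DMRs were left, 63.6% of them higher in MMS (45.9% over protein-coding genes), the median difference of those higher in MMS was 2.28 in place of 3.13, and by construction 0% had control near its lowest value. At a log2 difference of at least 2, 86.1% were higher in MMS (81.1% over protein-coding genes), and 2 DMRs touched an exon or the upstream window in place of 4. Kcnma1, with 4 DMRs, had none left without regions under 300 bp. Kcnd1 dropped out with the gene body alone, with DMR centres or with RefSeq spans, and Kcnu1 joined with 5000 bp upstream. A DMR was kept under every alternative that left the gene list alone by 13 of the 33 genes. No paired analysis was possible because the table holds group means and no library, and single libraries could not be left out either. The study's methods give a range of reads per library, but the table gives no value per library, so the precision of a mean cannot be stated.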
